A study of Mus musculus with 12 samples.

Results

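The transcripts described here encode 10 enzymes of serine synthesis, of folate-dependent one-carbon metabolism and of asparagine synthesis: Phgdh, Psat1, Psph, Shmt2, Mthfd2, Mthfd1l, Gldc, Shmt1, Mthfd1 and Asns. They were taken by gene symbol, all 10 were found among the 24421 genes of the deposited raw count table, and all 10 passed the filter on low counts, which kept 14497 genes. The cells were mouse E14 embryonic stem cells that express dCas_Alkbh5, a Cas fusion with Alkbh5, which removes the m6A mark from RNA. The control cultures carry this fusion too, and the labels do not say whether the line is 1 clone. The cells grew on gelatin in serum with LIF, were transfected with 1 μg of a guide RNA plasmid and selected for 3 days in 8 μg/mL blasticidin. All groups then spent 5 days with INK128 at 200 nM, a drug that blocks the kinase mTOR and puts such cells into a slowly growing, paused state. The 3 groups of 4 libraries differ in the guide: a non-targeting guide (NT), Mycn-gRNA2 or Mycn-gRNA3, and a single control guide was used. Whether the replicates of a group come from separate cultures is not stated in the labels, so p-values here reflect only sample-to-sample spread, and this spread may be technical.

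Serine is made from a glycolytic intermediate by Phgdh, Psat1 and Psph acting in turn, and serine hydroxymethyltransferases then pass a carbon from serine to folate, leaving glycine. Shmt2, Mthfd2 and Mthfd1l carry that chemistry in the mitochondrion and Shmt1 and Mthfd1 in the cytosol, and the carbon is used for purines, thymidylate and methyl groups. In many cell types the transcription factor ATF4, which mTOR signalling can raise, drives genes of this pathway together with Asns, the asparagine synthetase, and MYC family proteins are known regulators of serine and one-carbon genes.

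Endogenous reads ran from 17248564 to 33819855 per library, of which the 10 genes held 0.0792% to 0.118%, and ERCC RNAs, synthetic RNAs added to the RNA extracted from 200000 cells, took 1.04% to 1.61% of reads. Mycn, the targeted gene, was at 141 ± 4.17 CPM in NT (a gene's reads scaled to the endogenous library size with TMM factors; mean ± SD, n = 4), 236 ± 26.7 in Mycn-gRNA2 and 276 ± 16.7 in Mycn-gRNA3. Reads on 4 Y-linked genes (Kdm5d, Eif2s3y, Ddx3y and Uty) summed to 0.0449 to 0.181 CPM in NT libraries, against 32.4 to 83.8 CPM in the 8 libraries with a Mycn guide. In every comparison with NT below, the guide and this difference between the cells cannot be told apart. Summed over 8 embryonic stem cell markers, the level was 4694 to 5129 CPM in NT, 3737 to 4330 CPM in Mycn-gRNA2 and 3894 to 4456 CPM in Mycn-gRNA3, with 4 of the 8 called lower and 0 higher. Of 8 primitive endoderm markers 6 were called higher (summed 126 to 176, 179 to 207 and 188 to 209.7 CPM), and of 8 fibroblast markers, 4 of them tested, 3 were called higher and 1 lower at summed levels of 15.2 to 20.5 CPM in all groups, with Lum and Postn at 0 reads in NT. The part of these differences in the results was not tested. Mycn-gRNA2 replicate 1 stood apart from the other guide libraries: it was the lowest of the 8 in CPM for 7 of the 10 genes, had the highest Y-linked sum, and without it the count of all genes called between guides and NT went from 4034 to 6157. How often it was the lowest over all tested genes was not counted, so the 7 cannot be read as particular to these genes.

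Relative to the transcriptome, transcripts of the serine synthesis enzymes Phgdh, Psat1 and Psph, of the mitochondrial one-carbon enzyme Mthfd2 and of the glycine cleavage enzyme Gldc were each about as much higher in cells with a Mycn guide, by 0.86 to 0.97 on the log2 scale. The cytosolic enzymes Shmt1 and Mthfd1 and the asparagine synthetase Asns had log2 differences of -0.07 to -0.06 and did not pass the test. With both guides against NT, 5 of the 10 genes rose and 0 fell (6 and 0 at an unadjusted p under 0.05, and 6 and 0 by DESeq2), where 14.9% of all 14497 tested genes were called higher and 13% lower. Of all tested genes, 5676 had an unadjusted edgeR p under 0.05, either way, and DESeq2 called 4273. The median log2 fold change of the 10 was 0.54, beside -0.003 over all tested genes. Here and below, called means a Benjamini-Hochberg adjusted p under 0.05 over all tested genes in edgeR's quasi-likelihood test. For both guides against NT this test counts the guide libraries singly. Same-numbered libraries of the guides deviated together, so its p in that joint comparison may be too small. In bulk RNA a difference in the share of cells that express a gene and a difference in RNA per cell cannot be told apart.

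**Figure D1:**
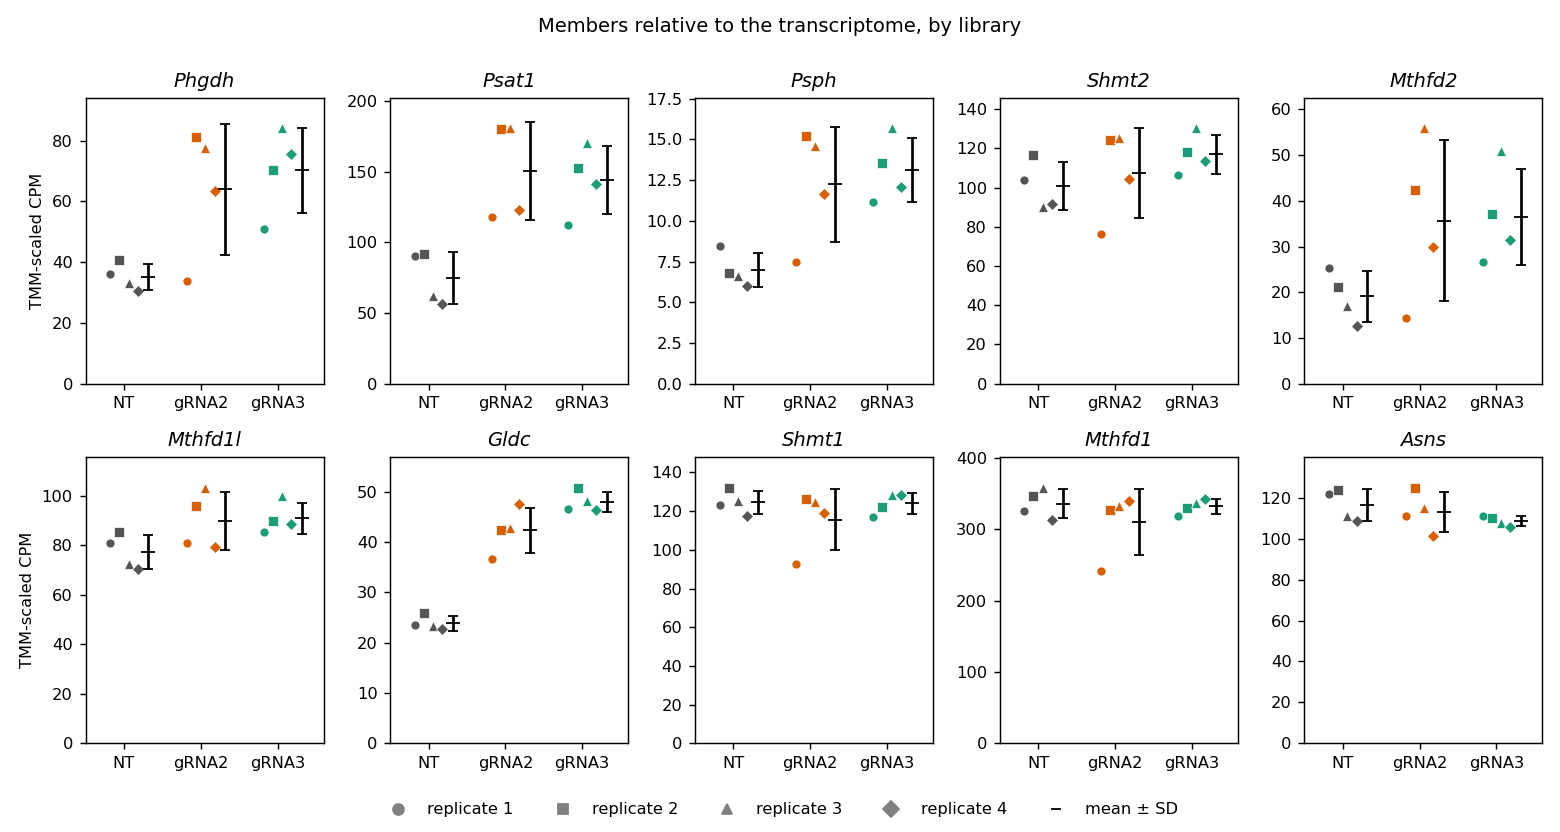
Level of each of the 10 genes in CPM (TMM-scaled, linear axis from 0) in the 4 NT, 4 Mycn-gRNA2 and 4 Mycn-gRNA3 libraries; symbols mark the replicate number and bars the mean ± SD. Psat1 and Gldc are the 2 genes for which all 8 guide libraries lie above every NT library, and Mycn-gRNA2 replicate 1 lies among or below the NT libraries for the other 8.

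Phgdh, the enzyme of the committed step from 3-phosphoglycerate, lies at chr3:98313171-98339969 on the minus strand (mm10). Its level was 36.2, 40.6, 33.2 and 30.7 CPM in NT replicates 1 to 4, 33.7, 81.3, 77.6 and 63.4 CPM in Mycn-gRNA2, and 51.0, 70.3, 84.1 and 75.6 CPM in Mycn-gRNA3. All guide libraries except Mycn-gRNA2 replicate 1, which lay inside the NT range, were above every NT library. Phgdh rose on the log2 scale by 0.93 ± 0.201 (SE; adjusted p = 0.00413 in edgeR), 0.86 with Mycn-gRNA2 (adjusted p = 0.0188) and 1.00 with Mycn-gRNA3 (adjusted p = 0.00583). The Mycn-gRNA2 call was lost without NT replicate 3, NT replicate 4 or Mycn-gRNA2 replicate 3, at adjusted p from 0.0513 to 0.0566.

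Psat1, the aminotransferase that follows, lies at chr19:15905123-15925059 (minus strand). NT replicates 1 to 4 had 90.5, 91.6, 61.9 and 56.7 CPM, Mycn-gRNA2 118, 180.3, 181 and 123 CPM, and Mycn-gRNA3 112, 153, 170.3 and 141 CPM. The groups did not overlap: the lowest guide library, at 112 CPM, was above the highest NT library, although NT itself split into a higher and a lower pair. Psat1 rose on the log2 scale by 0.97 ± 0.169 (SE; adjusted p = 0.00096 in edgeR), 1.00 with Mycn-gRNA2 and 0.94 with Mycn-gRNA3, and every removal of 1 library left these 3 calls in place.

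Psph, the phosphatase that releases serine, lies at chr5:129765558-129787253 (minus strand) and was counted at 137 to 433 reads per library. It had 8.44, 6.82, 6.61 and 6.03 CPM in NT, 7.48, 15.2, 14.6 and 11.7 CPM in Mycn-gRNA2, and 11.2, 13.6, 15.7 and 12.1 CPM in Mycn-gRNA3. As for Phgdh, only Mycn-gRNA2 replicate 1 fell inside the NT range. The log2 fold change was 0.86 (SE 0.173, edgeR adjusted p = 0.00246), 0.81 with Mycn-gRNA2 (adjusted p = 0.0119) and 0.91 with Mycn-gRNA3 (adjusted p = 0.00381).

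The proportions of the 3 serine synthesis genes within a library were compared as ratios of reads, which do not depend on any scaling between libraries. Psat1 had 2.12 ± 0.316 reads per Phgdh read in NT, 2.50 ± 0.692 in Mycn-gRNA2 and 2.07 ± 0.155 in Mycn-gRNA3 (SD, n = 4). The guide libraries differed from NT by 0.09 on the log2 scale (SE 0.146, exact two-sided permutation p = 0.634). Psph had 0.199 ± 0.0267, 0.195 ± 0.0179 and 0.190 ± 0.0245 reads per Phgdh read, a log2 difference of -0.05 (SE 0.110, exact permutation p = 0.642). In both ratios the groups overlapped, and the differences were smaller than the spread between replicates. Over the 6 ratios compared in all, the Benjamini-Hochberg adjusted p was 0.659 for both.

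The stretches just upstream of the RefSeq start sites (GRCm38.p6, 250 bases, 5′ to 3′ on the gene's strand) are shown for the first 2 enzymes of serine synthesis, which rose, and for Asns, which did not pass the test relative to the transcriptome. They are given because this pathway and Asns are commonly described as joint ATF4 targets. Capitals mark a match to TGATGNAA, a core of the site bound by ATF4 with its partners, searched on both strands. The Asns window is chr6:7693210-7693459, and its RefSeq start lies 27 bases from the start in the count table. The Psat1 window is chr19:15925060-15925309 and the Phgdh window chr3:98339970-98340219, all on the minus strand.
Asns: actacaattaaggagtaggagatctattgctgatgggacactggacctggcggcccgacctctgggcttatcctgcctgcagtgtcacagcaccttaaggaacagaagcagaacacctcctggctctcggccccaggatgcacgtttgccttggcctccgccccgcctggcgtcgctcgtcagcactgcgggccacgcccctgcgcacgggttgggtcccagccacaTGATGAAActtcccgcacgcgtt
Psat1: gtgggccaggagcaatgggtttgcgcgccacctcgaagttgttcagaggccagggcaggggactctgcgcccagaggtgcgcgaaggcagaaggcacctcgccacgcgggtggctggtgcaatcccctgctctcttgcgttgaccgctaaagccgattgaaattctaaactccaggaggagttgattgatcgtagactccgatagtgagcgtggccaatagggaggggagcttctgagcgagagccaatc
Phgdh: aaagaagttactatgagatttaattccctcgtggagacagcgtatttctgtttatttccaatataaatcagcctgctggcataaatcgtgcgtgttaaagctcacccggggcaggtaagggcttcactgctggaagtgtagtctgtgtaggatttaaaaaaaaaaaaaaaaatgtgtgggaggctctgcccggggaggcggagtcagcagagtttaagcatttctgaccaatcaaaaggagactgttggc
All 10 genes had an entry in the RefSeq promoter table, with 11 windows because Psat1 has 2 start sites. TGATGNAA was found in the window of 1 of the 10, Asns, at position -23 from its start, beside 3.45% of all 32851 promoter windows of that length. The E-box letters CACGTG, the form that MYC family proteins bind, were in the windows of 0 of the 10, beside 6.02% of all windows. A match is a description of these letters and not a site of binding, and a missing match speaks only of this window.

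Among the mitochondrial one-carbon enzymes, Mthfd2, the dehydrogenase and cyclohydrolase at chr6:83305704-83317604 (minus strand), varied most. It was at 25.4, 21.3, 17.1 and 12.6 CPM in NT, 14.5, 42.4, 55.9 and 29.9 CPM in Mycn-gRNA2, and 26.6, 37.2, 50.9 and 31.5 CPM in Mycn-gRNA3. Mycn-gRNA2 replicate 1 lay among the NT libraries, and Mycn-gRNA3 replicate 1 was only just above the highest of them. Its coefficient of variation was 28.7% in NT, 49.5% in Mycn-gRNA2 and 28.8% in Mycn-gRNA3, far above the 3.11% to 4.77% that counting error gives. Mthfd2 rose in the joint comparison of both guides (log2 fold change 0.92, SE 0.304, edgeR adjusted p = 0.0386), but neither guide alone passed, at 0.90 (adjusted p = 0.0882) and 0.94 (adjusted p = 0.056). The joint p counts same-numbered libraries of the guides singly and may be too small. The joint call was lost at adjusted p from 0.0547 to 0.119 when NT replicate 2, 3 or 4, Mycn-gRNA2 replicate 2 or 3, or Mycn-gRNA3 replicate 2 or 3 was left out. Without Mycn-gRNA2 replicate 1 the Mycn-gRNA2 difference was 1.16 (edgeR adjusted p = 0.0228). The Mycn-gRNA3 difference passed without NT replicate 1, Mycn-gRNA2 replicate 1 or 3, or Mycn-gRNA3 replicate 1 (adjusted p from 0.0295 to 0.0492).

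Mthfd1l, the mitochondrial formyltetrahydrofolate synthetase at chr10:3973075-4167081 (plus strand), was at 80.9, 85.2, 72.5 and 70.5 CPM in NT, 81.0, 95.7, 103 and 79.1 CPM in Mycn-gRNA2, and 85.2, 89.8, 99.9 and 88.7 CPM in Mycn-gRNA3. The guide libraries were on average higher, with Mycn-gRNA2 replicates 1 and 4 inside the NT range. The log2 difference of 0.23 did not pass (SE 0.0823, edgeR adjusted p = 0.0556), and it passed without NT replicate 2, Mycn-gRNA2 replicate 1 or Mycn-gRNA2 replicate 4, at adjusted p from 0.0152 to 0.0452. Shmt2, the mitochondrial serine hydroxymethyltransferase at chr10:127517123-127522444 (minus strand), had 104, 117, 90.3 and 91.5 CPM in NT, 76.1, 124, 125 and 104 CPM in Mycn-gRNA2, and 106, 118, 130.2 and 113 CPM in Mycn-gRNA3. The 3 groups overlapped, and the lowest of all 12 libraries was Mycn-gRNA2 replicate 1. The log2 difference was 0.16 (SE 0.119, 95% interval -0.08 to 0.39, edgeR adjusted p = 0.351), and without that library it was 0.22 (adjusted p = 0.0354). Exons of Shmt2 overlap those of Ndufa4l2 on the other strand, and with no strand setting given for the counting, reads of that overlap cannot be told apart.

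Gldc, the glycine-splitting subunit of the mitochondrial glycine cleavage system, lies at chr19:30098441-30175441 (minus strand). It was at 23.5, 26.0, 23.2 and 22.7 CPM in NT, 36.6, 42.4, 42.8 and 47.5 CPM in Mycn-gRNA2, and 46.7, 50.8, 48.3 and 46.4 CPM in Mycn-gRNA3. The groups were far apart, with Mycn-gRNA2 replicate 1 again the lowest guide library yet well above NT. Gldc had the smallest adjusted p of the 10 (log2 fold change 0.92, SE 0.0731, edgeR adjusted p = 2.82e-06), and it rose with Mycn-gRNA2 (0.83, adjusted p = 2.46e-05) and with Mycn-gRNA3 (1.01, adjusted p = 4.13e-06). The other subunits of the system did not pass edgeR's test relative to the transcriptome: Amt had a log2 difference of -0.21 (adjusted p = 0.12), Gcsh of 0.15 (adjusted p = 0.156) and Dld of -0.04 (adjusted p = 0.637).

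Shmt1, the cytosolic serine hydroxymethyltransferase at chr11:60788897-60811265 (minus strand), was at 123, 132, 125 and 118 CPM in NT, 92.7, 126, 125 and 119 CPM in Mycn-gRNA2, and 117, 122, 128 and 129 CPM in Mycn-gRNA3. Mthfd1, the trifunctional cytosolic folate enzyme at chr12:76255232-76319820 (plus strand), was at 326, 347, 358 and 313 CPM in NT, 241, 327, 333 and 339.5 CPM in Mycn-gRNA2, and 319, 329.8, 337 and 343 CPM in Mycn-gRNA3. For both genes the groups overlapped, and Mycn-gRNA2 replicate 1 lay below all 11 other libraries. The log2 differences were -0.06 for Shmt1 (95% interval -0.20 to 0.09, edgeR adjusted p = 0.616) and -0.07 for Mthfd1 (-0.22 to 0.09, adjusted p = 0.577).

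Asns lies at chr6:7675171-7693182 (minus strand). It was at 122, 124, 111 and 108 CPM in NT, 111, 125, 115 and 101 CPM in Mycn-gRNA2, and 111, 110.1, 108 and 106 CPM in Mycn-gRNA3. The groups overlapped and the 4 Mycn-gRNA3 libraries lay closest together, with a coefficient of variation of 2.11%. The log2 difference of -0.07 had a 95% interval of -0.19 to 0.05 (edgeR adjusted p = 0.415), so a rise as large as that of Psat1 or Phgdh lay outside it.

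**Figure D2:**
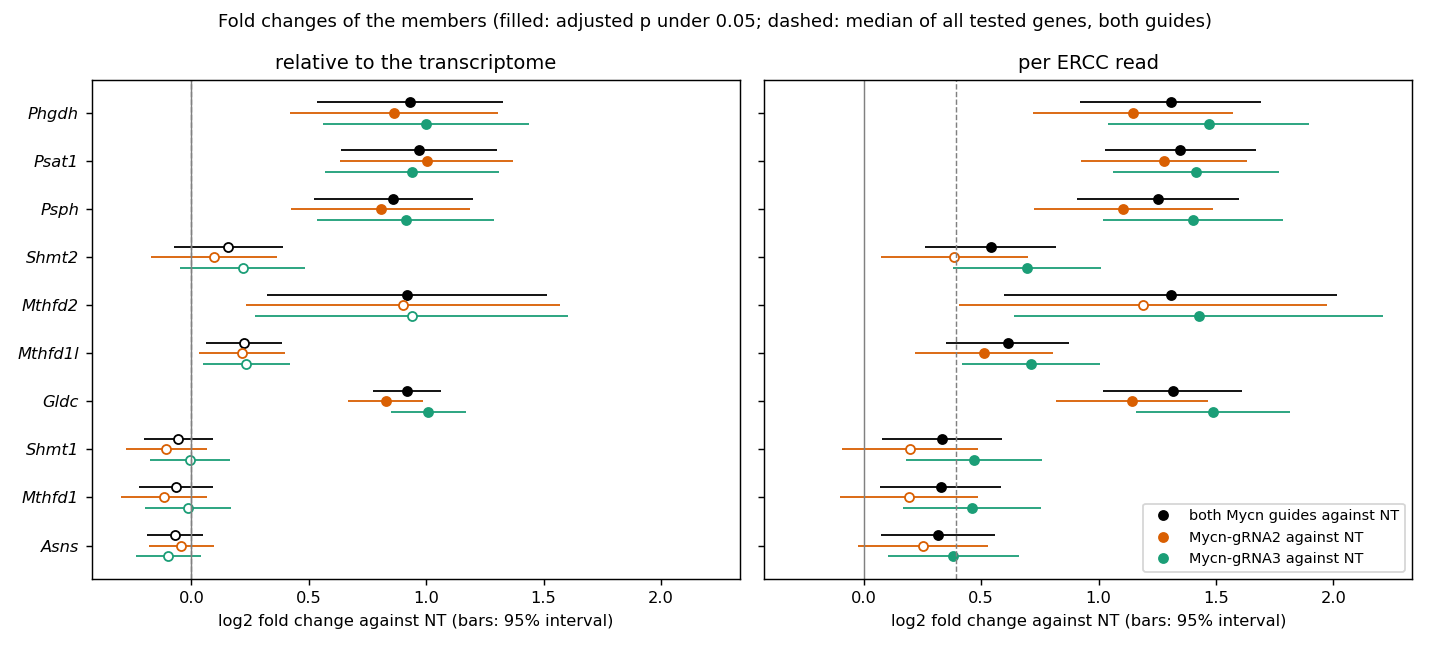
Log2 fold change of each of the 10 genes against NT, relative to the transcriptome and per ERCC read, for both guides together and each guide, with 95% intervals from the standard error; filled points have an edgeR adjusted p under 0.05 and the dashed line is the median of all tested genes. On the relative scale Phgdh, Psat1, Psph, Mthfd2 and Gldc sit between 0.86 and 0.97 for both guides, while Shmt1, Mthfd1 and Asns sit at -0.07 to -0.06.

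Each guide was also compared with the same NT libraries, so these comparisons share their controls. With Mycn-gRNA2, 4 of the 10 genes rose (Phgdh, Psat1, Psph and Gldc), where 10.1% of all tested genes were called higher and 7.05% lower. With Mycn-gRNA3, the same 4 rose, where 14.8% were called higher and 12.2% lower. Of the 10, edgeR called 0 lower in these comparisons, also at an unadjusted p under 0.05, where 6 were higher in each, and 0 by DESeq2. Over all tested genes, 4482 with Mycn-gRNA2 and 5780 with Mycn-gRNA3 had an unadjusted edgeR p under 0.05, either way. DESeq2 called 2839 and 4277. Without Mycn-gRNA2 replicate 1, 7 of the 10 rose with both guides, the added genes being Shmt2 and Mthfd1l, and 6 rose with each guide. Calls over all genes rose as well, from 4034 to 6157 with both guides. Over all removals of 1 library they reached up to 4114 with Mycn-gRNA2 and 6012 with Mycn-gRNA3. With replicates 1 and 2 of each group alone, 1 of the 10 was called with both guides, Gldc. Calls over all genes fell from 4034 to 178 in that setting, so the loss is not particular to these genes. There Psat1 had a log2 difference of 0.63 (edgeR adjusted p = 0.178), Phgdh of 0.62 (adjusted p = 0.426) and Psph of 0.63 (adjusted p = 0.349).

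All 8 guide libraries were above every NT library for 2 of the 10 genes in CPM, Psat1 and Gldc, where 8.56% of all tested genes showed this. Without Mycn-gRNA2 replicate 1, 5 of the 10 did, where the share of all tested genes was 13.3%. Leaving out a library can only raise or keep such a count, and this one was the lowest guide library for 7 of the 10 genes. The rise to 5 is therefore no evidence about these genes.

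Between the guides, edgeR called 0 of the 10 genes relative to the transcriptome, as it called 0% of all tested genes in either direction. At an unadjusted p under 0.05, 1 of the 10 differed, Gldc, and 1274 genes in all, and DESeq2 called 0 of the 10 and 1 gene in all. The difference, Mycn-gRNA3 less Mycn-gRNA2, was 0.18 for Gldc with a 95% interval of 0.03 to 0.34 (adjusted p = 0.549). Wide intervals leave room for a difference in other genes, -0.30 to 0.57 for Phgdh, -0.43 to 0.30 for Psat1 and -0.61 to 0.69 for Mthfd2. Asns was bounded more closely, at -0.19 to 0.08. With the replicate number as a block, which pairs the libraries of the 2 guides, edgeR again called 0 of the 10.

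The balance between mitochondrial and cytosolic enzymes of the same step was compared as a read ratio within each library. Mthfd2 had 0.0778, 0.0613, 0.0478 and 0.0404 reads per Mthfd1 read in NT, 0.0601, 0.130, 0.168 and 0.0881 in Mycn-gRNA2, and 0.0833, 0.113, 0.151 and 0.0917 in Mycn-gRNA3. Of the 8 guide libraries 7 were above every NT library, the exception being Mycn-gRNA2 replicate 1. The ratio was higher in guide libraries by 0.93 on the log2 scale (SE 0.271, exact two-sided permutation p = 0.0101, adjusted p = 0.0364 over the 6 ratios). This permutation counts the 8 guide libraries singly, although same-numbered libraries of the 2 guides deviated together, so its p may be too small, here and for the other ratios. With each such pair averaged, 4 averages against 4 NT libraries gave an exact permutation p of 0.0571 and an adjusted p of 0.171, where the smallest p possible is 0.0286, and the difference did not pass the test.

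Mthfd1l to Mthfd1, the ratio of the mitochondrial to the cytosolic formyltetrahydrofolate synthetase, was 0.230 ± 0.0211 in NT, 0.293 ± 0.0438 in Mycn-gRNA2 and 0.274 ± 0.0164 in Mycn-gRNA3. It was higher in guide libraries by 0.29 (SE 0.0894, exact permutation p = 0.0141, adjusted p = 0.0364), with 7 of 8 above every NT library. Shmt2 to Shmt1 was 0.807 ± 0.0711, 0.922 ± 0.0873 and 0.943 ± 0.0583, higher by 0.21 (SE 0.0749, exact permutation p = 0.0182, adjusted p = 0.0364), and 5 of the 8 guide libraries exceeded all of NT. With the pairs averaged neither passed (exact permutation p = 0.0571 for Mthfd1l to Mthfd1 and 0.0857 for Shmt2 to Shmt1, adjusted p = 0.171 for both). Permutation within replicate numbers gave an adjusted p of 0.0494 for each of the 3 ratios. That permutation treats NT as sharing its numbers with the guides, which the libraries did not show throughout, so its p does not restore the calls. Counting libraries singly, leaving out NT replicate 3 or 4, Mycn-gRNA2 replicate 2 or 3, or Mycn-gRNA3 replicate 2 or 3 ended the 3 calls, at adjusted p from 0.0636 to 0.133. Psat1 to Mthfd2, which sets serine synthesis beside the mitochondrial step, differed by 0.12 (SE 0.168, exact permutation p = 0.659), and its groups overlapped.

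**Figure D3:**
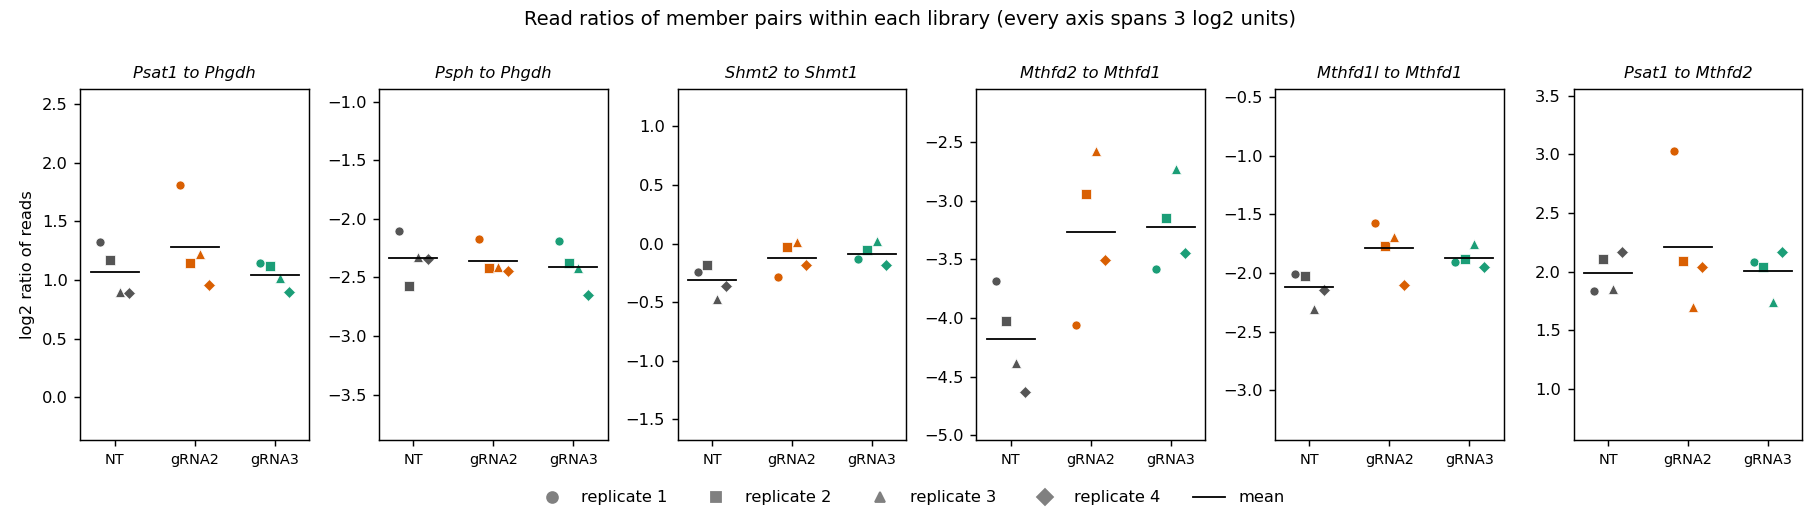
Log2 ratio of reads of 2 genes within each library, for 6 pairs of enzymes, in the 4 NT, 4 Mycn-gRNA2 and 4 Mycn-gRNA3 libraries, with symbols for the replicate number and a line at each group's mean. For Mthfd2 to Mthfd1 and for Mthfd1l to Mthfd1, 7 of the 8 guide libraries lie above every NT library, while the groups overlap for Psat1 to Phgdh, Psph to Phgdh and Psat1 to Mthfd2.

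Counted per ERCC read, the guide libraries held on average more endogenous RNA than NT, with Mycn-gRNA2 replicate 2 inside the NT range. Endogenous reads per ERCC read were 61.3, 72.1, 65.1 and 63.4 in NT, 85.0, 65.6, 81.6 and 95.6 in Mycn-gRNA2, and 93.2, 90.1, 94.5 and 83.0 in Mycn-gRNA3. On this scale all 10 genes rose with both guides against NT, and 56.4% of all tested genes were called higher and 0.931% lower. The median log2 fold change of the 10 was 0.93, beside 0.39 over all tested genes, so the values below are best read against that shift. The ERCC RNAs were added after extraction, so differences in cell number or RNA yield enter this scale, which was not tested.

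The 5 genes that rose relative to the transcriptome had the 5 largest log2 fold changes of the 10 per ERCC read. Both scales use the same reads and differ mainly by a shift common to all genes, so this order is not separate evidence. Gldc was at 1.40, 1.91, 1.53 and 1.42 reads per 1000 ERCC reads in NT, 3.03, 2.70, 3.52 and 4.56 in Mycn-gRNA2, and 4.44, 4.73, 4.58 and 3.80 in Mycn-gRNA3. These groups did not overlap, and the rise was 1.32 on the log2 scale (edgeR adjusted p = 1.37e-08). Psat1 was at 5.39, 6.74, 4.06 and 3.56 in NT, 9.79, 11.5, 14.9 and 11.8 in Mycn-gRNA2, and 10.7, 14.2, 16.2 and 11.6 in Mycn-gRNA3. Here too every guide library lay above every NT library, and Psat1 rose by 1.35 (adjusted p = 3.69e-07). Phgdh went from 2.31 ± 0.466 in NT to 5.11 ± 1.62 and 6.39 ± 1.29 (log2 fold change 1.31, edgeR adjusted p = 3.56e-05), with Mycn-gRNA2 replicate 1 inside the NT range. Psph went from 0.454 ± 0.0604 to 0.977 ± 0.257 and 1.20 ± 0.224 (1.25, edgeR adjusted p = 6.74e-07), and Mthfd2 from 1.25 ± 0.363 to 2.84 ± 1.39 and 3.35 ± 1.08 (1.31, edgeR adjusted p = 0.0128). In all, 3 of the 10 genes (Psat1, Psph and Gldc) had every guide library above every NT library per ERCC read, where 11.5% of all tested genes did, and 5 did without Mycn-gRNA2 replicate 1, where 15.1% did. Mycn-gRNA2 replicate 1 was the lowest guide library for 7 of the 10 genes on this scale too, so that rise is no evidence either.

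The smaller differences per ERCC read were 0.61 for Mthfd1l (edgeR adjusted p = 0.00038), 0.54 for Shmt2 (adjusted p = 0.00223) and 0.33 for Shmt1 and for Mthfd1 (adjusted p = 0.028 and 0.0333). Asns was at 7.28, 9.12, 7.30 and 6.80 reads per 1000 ERCC reads in NT, 9.20, 7.97, 9.46 and 9.70 in Mycn-gRNA2, and 10.6, 10.3, 10.2 and 8.68 in Mycn-gRNA3. NT replicate 2 overlapped the guide libraries, and the log2 fold change was 0.32 (edgeR adjusted p = 0.0289). Shmt1, Mthfd1 and Asns thus rose by less than the median of all genes. The Asns call was lost without NT replicate 1, 3 or 4, Mycn-gRNA2 replicate 3, or Mycn-gRNA3 replicate 1, 2 or 3 (adjusted p from 0.0533 to 0.126). That of Mthfd1 was lost without NT replicate 1, 3 or 4, Mycn-gRNA2 replicate 3 or 4, or Mycn-gRNA3 replicate 2 or 3 (0.0504 to 0.133), and that of Shmt1 without the same libraries other than Mycn-gRNA3 replicate 2 (0.0502 to 0.110).

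With each guide apart, Mycn-gRNA3 had all 10 genes called higher per ERCC read, where 60.7% of all tested genes were and 0.504% were lower, and Mycn-gRNA2 had 5 (Phgdh, Psat1, Psph, Mthfd1l and Gldc), where 26.3% were and 0.517% were lower. The Mycn-gRNA2 count was 8 without Mycn-gRNA2 replicate 2. Over all removals of 1 library, calls over all genes with Mycn-gRNA2 ran from 1866 to 7946, beside 3892 with every library. The 8 can therefore not be read as particular to the 10. With Mycn-gRNA2, Shmt2 (edgeR adjusted p from 0.00612 to 0.0403) and Mthfd2 (from 2.21e-14 to 0.0485) passed without NT replicate 2, Mycn-gRNA2 replicate 1 or Mycn-gRNA2 replicate 2. The Mthfd2 log2 fold change was 1.21 to 1.44 in these fits, beside 1.19 (edgeR adjusted p = 0.0525) with all libraries. Its smallest adjusted p is therefore not read as stronger evidence. Asns passed without Mycn-gRNA2 replicate 2 (0.0361), and Mthfd1l no longer passed without NT replicate 4 or Mycn-gRNA2 replicate 3 (0.0627 to 0.0702). The Mycn-gRNA3 call of Asns was lost when Mycn-gRNA3 replicate 1, 2 or 3 or NT replicate 1, 3 or 4 was left out (edgeR adjusted p from 0.0555 to 0.0826). The difference between the guides was called for 0 of the 10 genes, where 0.0069% of all tested genes, 1 gene, were called higher and 0% lower (2 genes with the replicate number as a block). At an unadjusted edgeR p under 0.05, 1 of the 10 differed, Gldc, and 1601 genes in all. DESeq2 called 0 of the 10 and 1 gene in all. Without Mycn-gRNA2 replicate 4 the difference between the guides was called for Gldc (0.51, edgeR adjusted p = 0.029) and Mthfd1 (0.42, adjusted p = 0.0496). Over all genes, leaving out 1 library gave 0 to 1988 calls between the guides, so these calls are not particular to the 10.

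**Figure D4:**
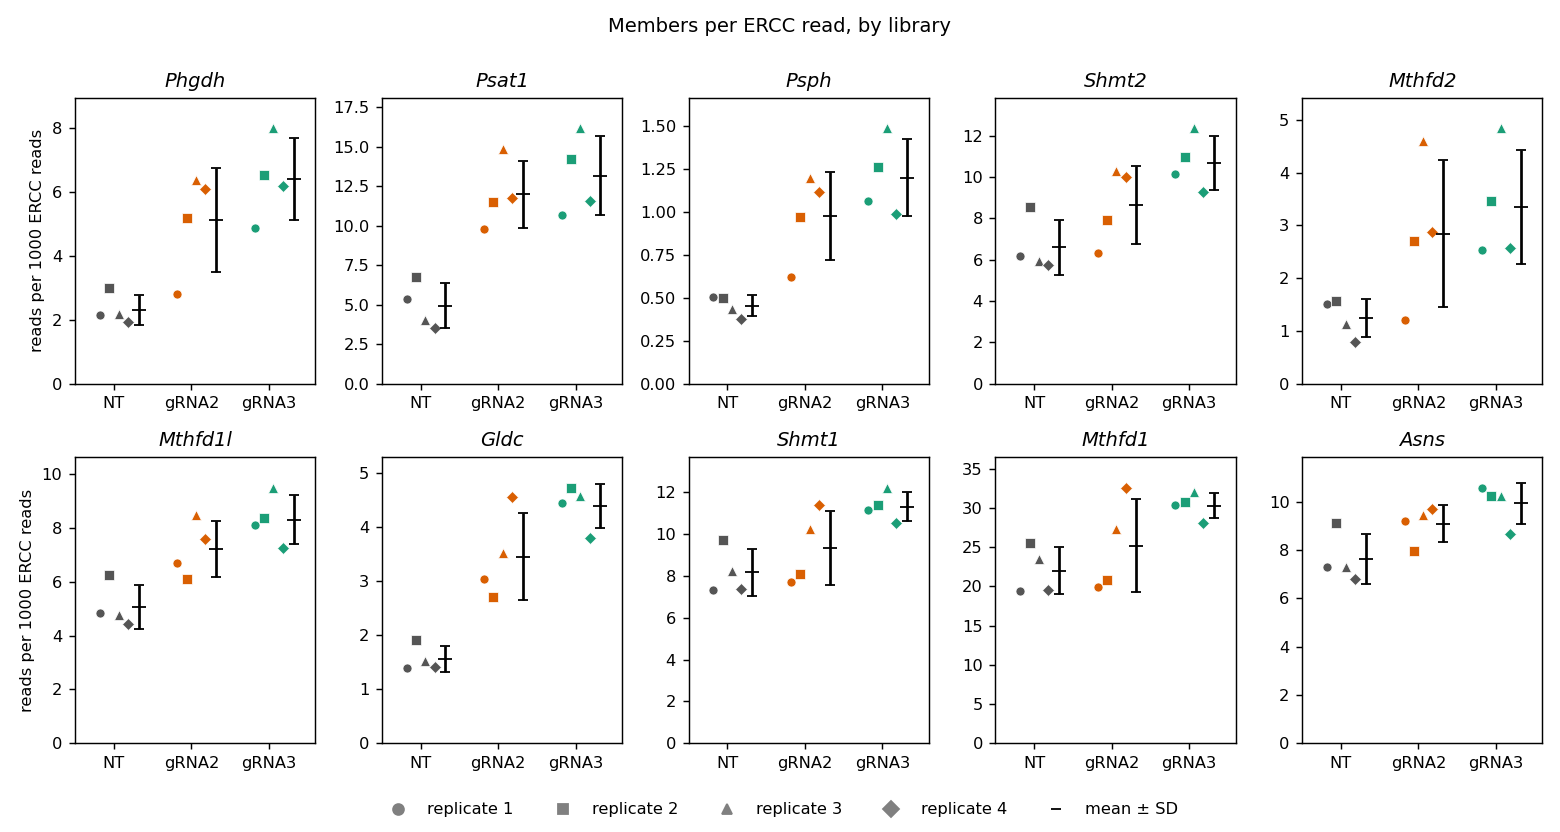
Reads of each of the 10 genes per 1000 ERCC reads (linear axis from 0) in the 12 libraries, with symbols for the replicate number and the mean ± SD of each group. All guide libraries lie above every NT library for Psat1, Psph and Gldc, and the groups overlap for the other 7.

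Levels of different genes were compared as reads per kilobase of gene length, scaled to library size as CPM is (RPKM). In NT, Mthfd1 was highest at 101 ± 6.15 (SD, n = 4), followed by Asns at 60.4 ± 4.01 and Shmt1 at 60.3 ± 2.86, whose ranges overlapped. Shmt2 at 43.6 ± 5.34 and Psat1 at 30.2 ± 7.41 came next, each apart from its neighbours. Phgdh at 18.8 ± 2.29 overlapped Mthfd1l at 17.8 ± 1.60, Mthfd2 at 9.22 ± 2.65 overlapped Gldc at 6.30 ± 0.387, and Psph at 4.54 ± 0.673 was lowest. With a Mycn guide Psat1 moved up this order: at 60.4 ± 13.9 with Mycn-gRNA2 and 57.9 ± 9.74 with Mycn-gRNA3, it overlapped Asns and Shmt1. Phgdh, at 34.2 ± 11.6 and 37.5 ± 7.51, no longer overlapped Mthfd1l with Mycn-gRNA3, whereas with Mycn-gRNA2 every neighbour in the order overlapped the next.

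**Figure D5:**
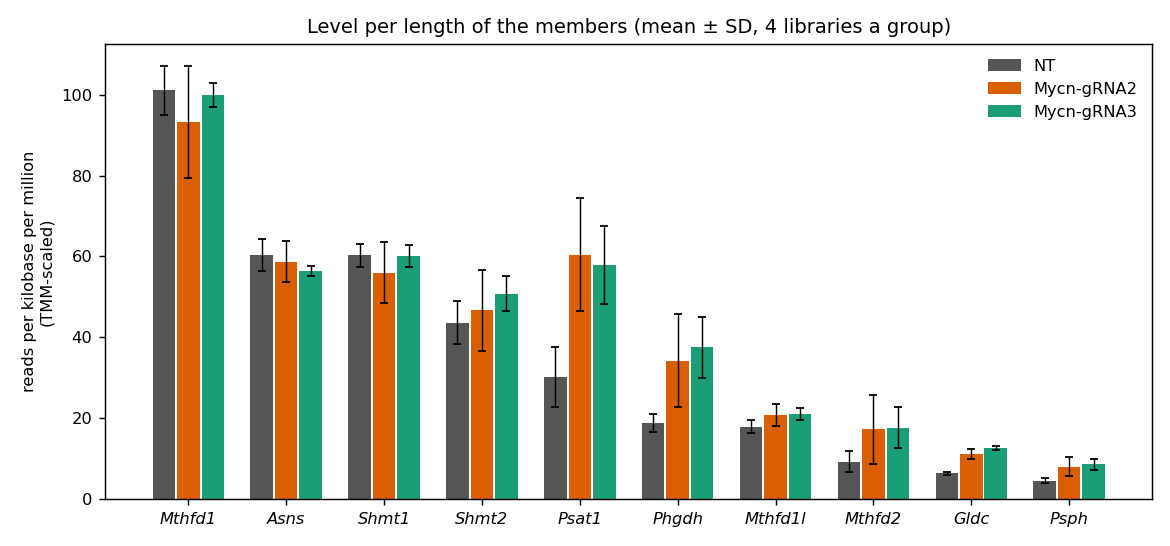
Level per length (RPKM, TMM-scaled, bars from 0) of the 10 genes in each group; bars are means and whiskers SD over 4 libraries. Mthfd1 is highest in all 3 groups, and Psat1 goes from 30.2 in NT to 60.4 and 57.9 with the guides.

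Among 18 genes of the folate cycle and folate uptake, 16 were tested and 3 rose relative to the transcriptome, a share near the 14.9% of all tested genes called higher. They were the folate carrier Slc19a1, higher by 0.49, the folate receptor Folr1, by 0.34, and the folate transporter Slc46a1, by 0.42 (edgeR adjusted p = 0.00323, 0.0202 and 0.0222). Slc25a32, the mitochondrial folate carrier, named after its value was seen, had a log2 difference of 0.18 (adjusted p = 0.159) and did not pass. The median of the list was 0.08. Of 10 tested genes of the methionine cycle and transsulfuration, 2 rose, Ahcy, which hydrolyses S-adenosylhomocysteine, by 0.48 (adjusted p = 0.0215) and the related Ahcyl1 by 0.37, and Mtr, the methionine synthase, fell by 0.24 (adjusted p = 0.0072), with a list median of -0.01. The background shares are those given for both guides above, 14.9% higher and 13% lower.

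Transport and use of serine held single called genes. The counts called per list lay near the shares of all tested genes, 14.9% higher and 13% lower. Of 9 serine and glycine transporters, 2 rose and 1 fell. Slc1a4, a carrier of neutral amino acids including serine, had 6.27 ± 1.07 CPM in NT, 13.01 ± 3.18 in Mycn-gRNA2 and 13.2 ± 2.19 in Mycn-gRNA3, a rise of 1.07 (adjusted p = 0.000308 in edgeR). Sfxn1, a mitochondrial serine carrier, rose by 0.23, and Slc38a1 fell by 0.18. Of 10 genes that use serine, 1 passed, Sars, the seryl-tRNA synthetase, which rose by 0.54 (adjusted p = 0.000821). Of 12 tested genes of glutamate, aspartate and proline synthesis, 1 rose and 2 fell. Aldh18a1, of proline synthesis, rose by 0.48, while Glul, the glutamine synthetase, fell by 0.49.

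Of 20 genes of the ATF4 pathway, 4 rose relative to the transcriptome, 0 fell and 16 did not pass. Over all tested genes 14.9% were called higher and 13% lower. The list holds Atf4 itself and the kinase genes Eif2ak1, Eif2ak3 and Eif2ak4, so not every gene in it lies under ATF4. The list median was 0.24, beside -0.0027 over all tested genes. Stc2 rose by 1.27 (edgeR adjusted p = 6.17e-05), Cebpb by 0.77 (adjusted p = 0.00253) and Nupr1 by 2.58 (adjusted p = 0.00052), the last from 0.222 ± 0.187 CPM in NT to 1.40 ± 0.475 and 1.26 ± 0.346 CPM. The fourth, Ddit4, named after its value was seen, rose by 0.95 (adjusted p = 0.0162). The Atf4 transcript was at 173 ± 9.67 CPM in NT, 169 ± 31.7 CPM in Mycn-gRNA2 and 169 ± 17.4 CPM in Mycn-gRNA3, a log2 difference of -0.04 (adjusted p = 0.822). Per ERCC read, higher calls numbered 13 of 16 folate genes, 6 of 10 methionine cycle genes, 6 of 9 transporters, 8 of 10 genes that use serine, 7 of 12 genes of glutamate, aspartate and proline synthesis, 16 of 20 ATF4 pathway genes and 2 of the 3 other glycine cleavage genes, beside 56.4% of all tested genes.

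The genes whose profile over the 12 libraries was most like that of 4 of the enzymes are given as a description, since all 12 share the group structure and the scaling. Among 11823 genes, Pearson's r of log2 CPM with Phgdh was highest for Eef1d (0.99), Pgk1 (0.986) and Ahcy (0.979). For Psat1 these were Odc1 (0.977), Acaca (0.977) and Prps1l3 (0.972), and for Mthfd2 they were Prpf4 (0.978), Yars (0.967) and Ldha (0.957). The closest genes to Asns, Mre11a (0.924), Ptcd3 (0.908) and Hspa14 (0.879), reached lower values.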

How the data were processed

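The deposited counts are raw reads per gene; per the submitters' processing notes the authors trimmed reads with Trim Galore 0.4.0, counted them with featureCounts of Subread 1.5.0 on mm10 and used edgeR 3.32.1. For the aligner, annotation release and strand setting, nothing is given in the sources used here. The deposited log2 values of 12042 genes equal log2(count + 0.5) less 1 constant per library, within 0.0475 of that from ERCC totals, and served 1 alternative. Groups came from the sample titles. The test was the quasi-likelihood F test of edgeR 4.0.16 (R 4.3.3), fitted robustly to the 12 libraries after filterByExpr, with TMM factors over endogenous genes (relative to the transcriptome) or ERCC totals as library sizes (per ERCC read). SE is the log2 fold change divided by the square root of F, and 95% intervals are 1.96 SE. Ratios were tested by exact permutation of libraries (8 against 4, smallest p 0.00202) and, as an alternative chosen after seeing the data, with same-numbered guide libraries averaged (smallest p 0.0286). Only the edgeR test of both guides against NT, relative to the transcriptome, was run on simulated data. Alternatives used DESeq2 1.42.0, limma 3.58.1, other filters, a replicate block and fewer libraries. Same-numbered libraries of the 2 guides deviated together (r = 0.211 to 0.498), so the numbers pair these; those of NT and the guides did not throughout (0.0329 to 0.370). No label explains the numbers. Members, gene lists and tests were chosen with earlier results of these data known. Named genes are the members, Mycn, up to 3 called genes each way per list, and the 3 most alike genes for 4 members. One list gene that the rule would name is not reported here. Replicate pairs differed by more than sampling noise, so none was merged.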

Additional observations from a re-analysis of the deposited data

Results flagged for a closer look

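For each of the 10 genes, each of the 3 groups of 4 libraries was searched on both scales for a library far from the other 3, and 3 of 60 such groups held one, where chance gives about 1 in 20. Mthfd1 was at 241 CPM in Mycn-gRNA2 replicate 1, with the other 3 libraries of that guide at 327 to 339.5 CPM. Shmt2 was at 8.58 reads per 1000 ERCC reads in NT replicate 2, where the other NT libraries had 5.74 to 6.20. Asns was at 8.68 reads per 1000 ERCC reads in Mycn-gRNA3 replicate 4, below the 10.2 to 10.6 of the others.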

How the results depend on the processing

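Over 1560 alternative values for single genes, 1417 kept direction and side of the threshold, 71 lost the call, 37 gained it and 35 changed sign; in 0 of those 35 was the value called in either setting. Counts over the 10 genes, given as both guides, Mycn-gRNA2 and Mycn-gRNA3 against NT, were 5, 4 and 4 relative to the transcriptome and 10, 5 and 10 per ERCC read. With replicates 1 and 2 alone they were 1, 0 and 1, and 4, 0 and 5, and with replicates 3 and 4 alone Mycn-gRNA2 per ERCC read gave 10. Leaving out 1 library at a time gave 4 to 7, 3 to 6 and 4 to 6, and 7 to 10, 4 to 8 and 9 to 10; between the guides it gave 0 to 0 and 0 to 2.

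All genes called were 4034, 2484 and 3925 relative to the transcriptome and 8312, 3892 and 8867 per ERCC read. Replicates 1 and 2 alone gave 178, 33 and 226, and 1113, 410 and 2792. Replicates 3 and 4 alone gave 6385, 4830 and 5955, and 8200 for Mycn-gRNA2 per ERCC read. Leaving out 1 library gave 2928 to 6157, 1622 to 4114 and 2655 to 6012, and 5599 to 10275, 1866 to 7946 and 6838 to 9978. Between the guides, 0 genes relative to the transcriptome became 1 with DESeq2 and 10 with replicates 3 and 4 alone (0 to 0 leaving out 1 library), and 1 gene per ERCC read became 2 with the replicate block, 520 and 7 with those pairs of replicates, and 0 to 1988 leaving out 1 library.

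The replicate block, whose numbers in comparisons with NT are only shared numbers, gave 6 of the 10 genes and 4456 genes in all for both guides relative to the transcriptome; per ERCC read it gave 7 of the 10, with Shmt1, Mthfd1 and Asns at adjusted p = 0.0527, 0.0526 and 0.0618. Without a filter on low counts Mthfd2 with both guides had edgeR adjusted p = 0.11 and Phgdh with Mycn-gRNA2 0.0532.

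The sign changes among single genes were as follows. Relative to the transcriptome, replicates 1 and 2 alone gave log2 differences of -0.053 for Shmt2 with both guides, -0.13 for Shmt2 with Mycn-gRNA2 and -0.017 for Mthfd1l between the guides. Replicates 3 and 4 alone gave Shmt1 and Mthfd1 0.043 and 0.011 with both guides, 0.0033 and 0.0032 with Mycn-gRNA2, and 0.082 and 0.019 with Mycn-gRNA3, and between the guides 0.036 for Psat1 and -0.060 for Mthfd2. Per ERCC read, replicates 1 and 2 alone gave -0.054, -0.11 and -0.14 for Shmt2, Shmt1 and Mthfd1 with Mycn-gRNA2, and replicates 3 and 4 alone gave -0.013 for Mthfd2 and -0.018 for Asns between the guides. Leaving out 1 library gave -0.094 to 0.0075 for Asns with Mycn-gRNA2 and -0.032 to 0.024 for Shmt1 and -0.050 to 0.016 for Mthfd1 with Mycn-gRNA3. Between the guides it gave -0.074 to 0.27 for Phgdh, -0.16 to 0.040 for Psat1, -0.070 to 0.22 for Psph, -0.011 to 0.21 for Shmt2, -0.22 to 0.34 for Mthfd2 (-0.016 to 0.57 per ERCC read), -0.037 to 0.093 for Mthfd1l and -0.0037 to 0.15 for Mthfd1.

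The log2 ratios Psat1 to Phgdh, Psph to Phgdh, Shmt2 to Shmt1, Mthfd2 to Mthfd1, Mthfd1l to Mthfd1 and Psat1 to Mthfd2 ranged over 0.001 to 0.18, -0.13 to 0.031, 0.16 to 0.25, 0.79 to 1.10, 0.23 to 0.33 and -0.014 to 0.18 leaving out 1 library. Shmt2 to Shmt1, Mthfd2 to Mthfd1 and Mthfd1l to Mthfd1 were 0.0872, 0.42 and 0.24 with replicates 1 and 2 alone and 0.33, 1.45 and 0.35 with replicates 3 and 4 alone, designs too small to pass. Psph to Phgdh was 0.049 with replicates 1 and 2 alone and Psat1 to Mthfd2 -0.10 with replicates 3 and 4 alone, both of the opposite sign to the reported values. With same-numbered guide libraries averaged, an alternative chosen after seeing the data, Shmt2 to Shmt1, Mthfd2 to Mthfd1 and Mthfd1l to Mthfd1 stayed at 0.21, 0.93 and 0.29 but did not pass (exact permutation, adjusted p = 0.171). Fewer libraries were fitted in the settings with pairs of replicates; for the others the cause was not tested. Counting error limits these values little: it was largest for Psph in NT, at a coefficient of variation of 7.89%.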
